A study of Mus musculus with 2 samples.

Results

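The open CpG-poor promoters of the newborn mouse lung comprised 915 accessible sites at the 5′ ends of 848 protein-coding genes. A site was a region where peaks of both replicates overlapped by at least 1 bp, and it counted when its centre lay within 500 bp of the 5′ end of a gene model in GENCODE release M21 (assembly mm10, chromosomes 1 to 19). A gene was CpG-poor when the 1 kb around its 5′ end fell in the lowest 3 deciles of CpG number, which meant at most 15 CpG dinucleotides. There were 6110 such genes among 20807 protein-coding genes on these chromosomes, and 157228 sites shared by both replicates in all. Neither the score of a peak nor any sequence feature other than CpG number entered the choice.

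The maps came from DNase-seq, in which DNase I digests the exposed stretches of chromatin and the sequenced cut ends reveal promoters and other active regulatory DNA. The series held 1 group: lung tissue of B6NCrl mice on postnatal day 0, with no treatment given in the labels, in 2 biological replicates. The labels give both replicates the same donor entry with separate biosamples, record the sex as not collected, and do not state whether these were different animals or pools. Every comparison is therefore within the lung maps or between the replicates, whose spread may be partly technical.

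Most mammalian promoters lie in CpG islands, which are open in nearly all cells and tend to start transcription at dispersed positions. Promoters poor in CpG serve mainly genes of particular cell types or responses, such as secreted proteins, immune receptors and digestive enzymes, and depend on factors found in those cells. Some carry a TATA box a short way upstream of the start, where the TATA-binding protein sets a focused start site. In a tissue of many cell types, fewer cells of a type and less accessibility per cell cannot be told apart.

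The 150 bases upstream of the 5′ end are shown for 11 genes, to let the letters be read beside the results. Ecm1 (extracellular matrix), Serpinb1a (an inhibitor of neutrophil elastase), Cxcl15 (a chemokine of lung epithelium) and Sftpa1 (surfactant protein A) stand for open promoters with a TATA box. Fcgrt (the Fc receptor that carries IgG across epithelia), Napsa (a protease that processes surfactant protein B), Cd68 (a macrophage lysosomal protein) and Lyz2 (lysozyme) stand for open promoters without one. Isg15 and Ifi27, both induced by interferon, show interferon response letters, and Afp, the fetal liver gene for alpha-fetoprotein, is a promoter with a TATA box and no peak. Capitals mark TATAAA on the gene strand and, on either strand, the letters searched for the following factors: GAAANNGAA (interferon regulatory factors, IRF), ACAGGAA (ETS factors), TGANTCA (AP-1), TTGCNNAA (C/EBP), TGTTTAC and TGTTTGC (forkhead factors), CTTGAG (NKX factors), GGGCGG (GC box) and CCAAT. Sequences are from the RefSeq copy of GRCm38.p6, which is mm10, and are written 5′ to 3′ on the strand of the gene.
Ecm1, chr3:95739570-95739719, minus strand: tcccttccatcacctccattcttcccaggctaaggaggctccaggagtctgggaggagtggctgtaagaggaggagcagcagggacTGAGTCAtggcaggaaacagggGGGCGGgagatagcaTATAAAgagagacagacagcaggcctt
Serpinb1a, chr13:32851186-32851335, minus strand: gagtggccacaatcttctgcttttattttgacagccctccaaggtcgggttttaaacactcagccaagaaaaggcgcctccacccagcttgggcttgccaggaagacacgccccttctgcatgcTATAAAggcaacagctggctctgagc
Cxcl15, chr5:90794384-90794533, plus strand: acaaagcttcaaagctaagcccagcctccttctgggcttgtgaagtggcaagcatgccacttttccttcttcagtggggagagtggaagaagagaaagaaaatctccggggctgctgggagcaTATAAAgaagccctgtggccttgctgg
Sftpa1, chr14:41131632-41131781, plus strand: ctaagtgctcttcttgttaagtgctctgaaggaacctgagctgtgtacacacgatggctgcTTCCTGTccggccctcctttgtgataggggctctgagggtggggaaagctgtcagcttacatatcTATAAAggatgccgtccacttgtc
Fcgrt, chr7:45103852-45104001, minus strand: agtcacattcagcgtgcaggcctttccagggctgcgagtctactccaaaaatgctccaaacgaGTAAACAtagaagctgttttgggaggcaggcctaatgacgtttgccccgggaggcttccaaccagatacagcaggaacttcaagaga
Napsa, chr7:44572230-44572379, plus strand: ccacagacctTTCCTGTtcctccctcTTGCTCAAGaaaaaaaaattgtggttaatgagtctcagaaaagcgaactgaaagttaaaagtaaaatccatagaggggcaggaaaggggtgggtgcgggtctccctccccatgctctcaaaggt
Cd68, chr11:69666154-69666303, minus strand: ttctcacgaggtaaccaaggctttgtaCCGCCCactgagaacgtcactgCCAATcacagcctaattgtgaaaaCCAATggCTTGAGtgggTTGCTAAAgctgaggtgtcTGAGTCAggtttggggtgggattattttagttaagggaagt
Lyz2, chr10:117282322-117282471, minus strand: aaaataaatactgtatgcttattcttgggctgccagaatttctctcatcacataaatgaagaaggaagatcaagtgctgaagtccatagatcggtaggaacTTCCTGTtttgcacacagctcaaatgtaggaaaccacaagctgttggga
Isg15, chr4:156200819-156200968, minus strand: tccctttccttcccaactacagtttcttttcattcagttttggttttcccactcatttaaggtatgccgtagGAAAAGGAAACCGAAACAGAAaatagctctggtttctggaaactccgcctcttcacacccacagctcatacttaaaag
Ifi27, chr12:103434061-103434210, plus strand: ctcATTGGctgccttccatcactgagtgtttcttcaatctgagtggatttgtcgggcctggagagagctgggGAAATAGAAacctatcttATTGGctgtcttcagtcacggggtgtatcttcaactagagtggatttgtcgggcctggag
Afp, chr5:90490587-90490736, plus strand: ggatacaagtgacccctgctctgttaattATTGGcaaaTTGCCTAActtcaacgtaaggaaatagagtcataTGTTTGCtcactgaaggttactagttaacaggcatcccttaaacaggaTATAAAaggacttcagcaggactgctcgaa

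A shared site was present at 63.4% of all protein-coding 5′ ends (13202 of 20807) and at 13.9% of the CpG-poor ones (848 of 6110, exact binomial 95% interval 13.0 to 14.8%). The middle 4 deciles reached 75.1% and the richest 3 deciles, with 64 or more CpGs, 95.6%. The intervals here and below cover counting error only, since genes of a family and neighbouring sites are not independent. Within the CpG-poor genes the share rose with CpG number, from 3.46% in the lowest decile (68 of 1964) through 12.4% in the next (273 of 2196) to 26.0% in the highest of the 3 (507 of 1950). At the limit itself, 34.0% of genes with 15 CpGs (99 of 291) and 39.8% of those with 16 (99 of 249) had a shared site, so the class has no sharp edge. The other limit, the distance to the 5′ end, was likewise gradual: 32 sites centred 451 to 500 bp away had median scores of 70.5 and 47.5 in replicates 1 and 2, and 48 sites at 501 to 550 bp had 68 and 45.5.

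**Figure D1:**
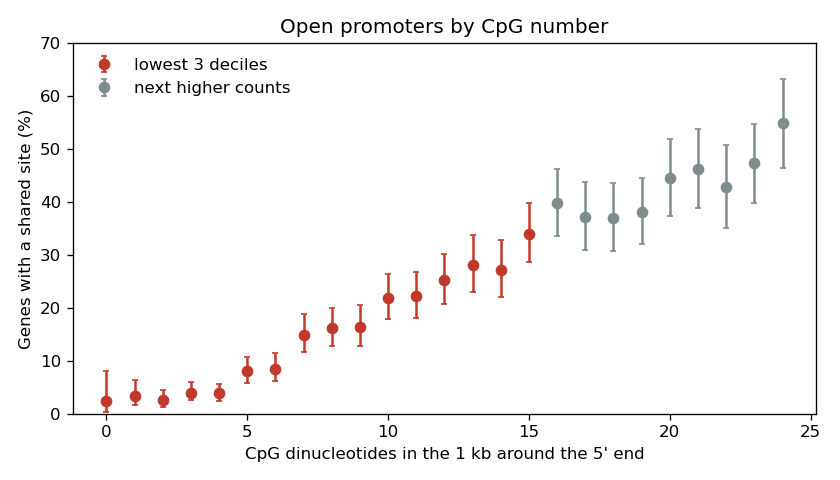
Share of protein-coding genes with a site shared by both replicates (y axis, %) at each number of CpG dinucleotides in the 1 kb around the 5′ end (x axis), with exact binomial 95% intervals as bars. Red points are the CpG-poor genes; the share climbs to 34.0% at 15 CpGs and continues at 39.8% at 16 without a step.

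A large part of the CpG-poor class consisted of sensory receptor genes that serve the nose and tongue. Of 1115 CpG-poor olfactory receptor genes, 9 had a shared site (0.807%, interval 0.370 to 1.53%), as did 1 of 327 vomeronasal receptor genes and 0 of 35 bitter taste receptor genes, where 3 counts would be 8.57%. Without these families the share of CpG-poor genes with a shared site was 18.1% (838 of 4633). It was 21.2% (775 of 3655) when gene models named only by a Gm number or Rik clone were left out too. By chromosome the share ran from 7.99% on chromosome 14 to 23.4% on chromosome 1.

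Replicate 1 listed more peaks than replicate 2 (276480 against 188498 on the chromosomes used), and the CpG-poor promoters shared that difference. A further 331 CpG-poor genes had a peak in replicate 1 only and 73 in replicate 2 only. For 9 genes both replicates had a peak but the peaks did not overlap, and 4849 genes had none. Of CpG-poor genes with any peak, 67.3% had a shared one, against 97.8% of CpG-rich genes. The peaks of replicate 1 only had a median score of 37 (range 6 to 93) and those of replicate 2 only a median of 25 (5 to 53), each below the medians of the shared sites. The part of the longer peak list of replicate 1 in these counts was not tested. As a check of the tissue label, 15 of 16 lung marker genes had a shared site. The exception was the club cell gene Scgb1a1, with a peak in replicate 1 only (score 48). It was 1 of 4 CpG-poor markers, with Sftpa1, Ager and Acta2. The other markers lay in the middle or richest deciles, where 75.1% and 95.6% of all genes had a shared site. Their sites are therefore a weak check. Blood cell markers of the same check are not among the 16: Ptprc had a shared site (43 and 43), and Spi1 and Csf1r had no peak. Of genes of absent organs, the pancreatic Ins2 and the muscle gene Ckm had no peak, whereas Alb of liver had a shared site of 36 and 40.

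The score of a peak, a whole number deposited by the authors whose meaning no source used here gives, placed the member sites in the middle of all shared sites. Their median score was 68 in replicate 1 (quartiles 49 and 87, range 11 to 144) and 47 in replicate 2 (quartiles 34 and 63, range 4 to 123). The median percentile among all shared sites was 50.8 in replicate 1 and 50.7 in replicate 2. Sites at CpG-rich promoters had medians of 119 and 98. Distal sites, more than 1000 bp from any annotated transcription start site (TSS), had 63 and 43, so that the CpG-poor promoters lay much nearer to distal elements than to CpG-rich promoters. In the top decile of scores in both replicates were 51 of 915 member sites (5.57%), 55.2% of CpG-rich promoter sites and 2.55% of distal sites. Across the 915 sites the scores of both replicates had a Spearman rho of 0.909, a description across sites that share their libraries. Replicate 1 had the higher score at 876 sites (95.7%), with a median log2 ratio of 0.46. Over all shared sites these values were 95.5% and 0.445.

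**Figure D2:**
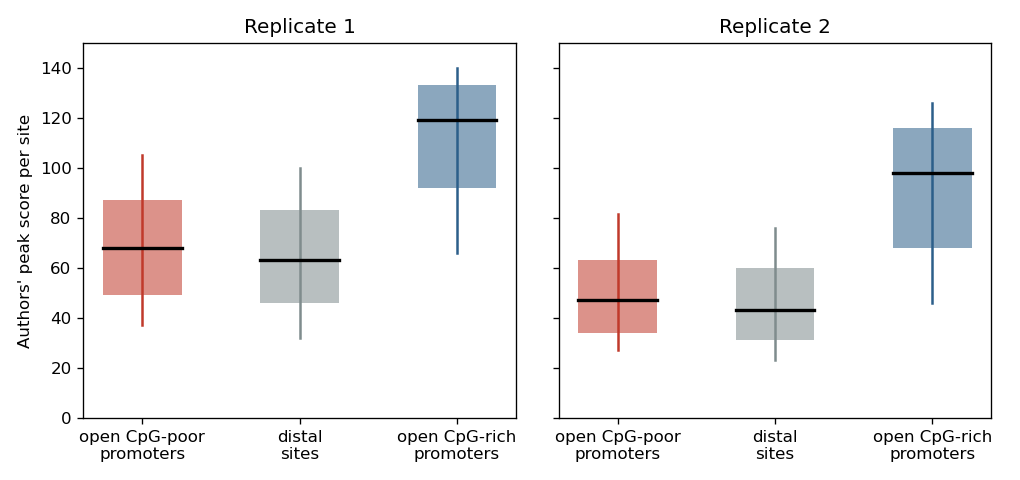
The authors' peak score per site (y axis) for open CpG-poor promoters, distal sites and open CpG-rich promoters, in each replicate. Black lines are medians, boxes quartiles and vertical lines the 10th to 90th percentile; the CpG-poor promoters, with medians of 68 and 47, sit beside the distal sites (63 and 43) and below the CpG-rich promoters (119 and 98).

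The hotspots, broader regions in a second file of each library, were not used to choose members. They come from the same libraries as the peaks and are no independent measure of them. All 915 member sites lay in a hotspot of each replicate, as did all shared sites compared here. Their hotspots had median widths of 382 bp in replicate 1 and 283 bp in replicate 2. Those at CpG-rich promoters were 1480 and 1110 bp wide, and those at distal sites 346 and 256 bp. The −log10 q-value of the hotspot stood at its ceiling of 100 for 69.9% of member sites in replicate 1 and 44.6% in replicate 2. For CpG-rich promoters these shares were 96.4% and 89.7%, and for distal sites 64.1% and 38.7%. A few members had far wider hotspots. Man1a, which trims mannose from glycoproteins, had 2487 and 3424 bp, and Mttp, which loads lipid onto lipoproteins, had 2683 and 2581 bp. For Ugt1a1, which conjugates bilirubin, the hotspot of replicate 1 spanned 5376 bp and that of replicate 2 only 451 bp, so that this width rests on 1 library.

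In position, however, the CpG-poor promoters were close to the CpG-rich ones. The strongest site of a gene was centred at a median of -38 bp from the 5′ end (quartiles -91.25 and 38.25 bp, negative values upstream), against -40 bp for CpG-rich genes. It lay upstream of the 5′ end for 66.3% of member genes and within 100 bp of it for 59.1%, against 64.9% within 100 bp for CpG-rich genes. Centres beyond 300 bp were found for 12.9% of member genes and 8.13% of CpG-rich genes. Annotated ends can differ between sources. A RefSeq start of the same gene lay within 50 bp of the GENCODE end for 47.5% of member genes and 49.4% of all protein-coding genes. Genes without a RefSeq start under the same symbol count against these shares, which therefore do not measure disagreement alone. Which ends are used in lung was not tested.

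**Figure D3:**
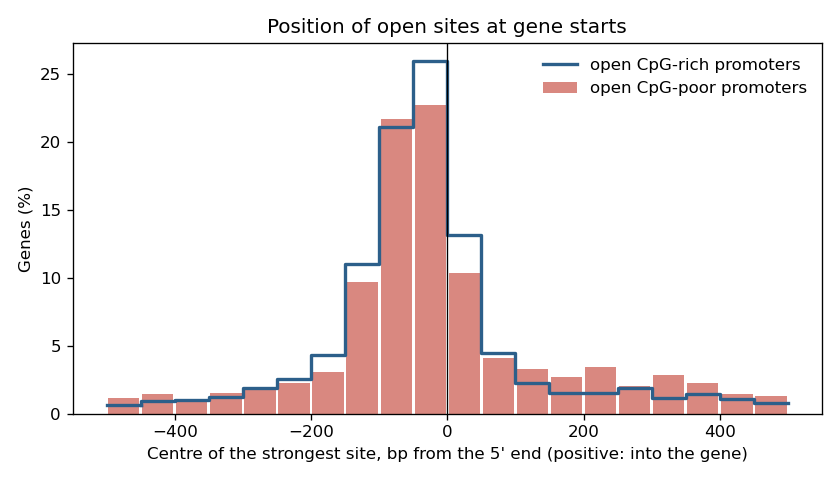
Distance of the centre of each gene's strongest shared site from the 5′ end (x axis, bp, in bins of equal width; positive into the gene) and the share of genes in each bin (y axis, %). Red bars are the 848 open CpG-poor genes and the blue line the 6135 open CpG-rich genes; both peak just upstream of the end, with medians of -38 and -40 bp.

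The member sites stood largely alone. Of 915, 47 (5.14%) had the TSS of another gene within 500 bp, 28 of them that of another protein-coding gene, and 0 lay at a CpG-rich 5′ end. The choice of members limits the last count, since a CpG-rich end so near would usually add CpGs to the same 1 kb. These shares were not counted for other classes of sites. At 12 of the member sites the 5′ ends of more than 1 CpG-poor gene met. Among these, Tmem176b and Tmem176a, membrane proteins of dendritic and other cells, shared a site with scores of 131 and 115. Their starts lie on opposite strands and face each other, and the site was centred downstream of both, by 385 and 192 bp. Ifit1 and Ifit1bl2, interferon-induced genes that face apart, shared a site of 86 and 61. Gbp8, Gbp9 and Gbp4 shared a site of 51 and 38, and these genes are therefore not separate observations. Another annotated TSS of the same gene had a shared site for 670 of the 5262 CpG-poor genes that were not members (12.7%).

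Member genes also had more accessible DNA around them than CpG-poor genes with no peak, and about as much as protein-coding genes in general. Within 50 kb of the 5′ end members had a median of 7 distal shared sites, as many as CpG-rich open genes, against 6 for all protein-coding genes. The median was 2 for CpG-poor genes with no peak and 4 for such genes without the receptor families and unnamed models. No distal site was found within 50 kb for 3.77% of member genes and 11.0% of all protein-coding genes. The share was 36.7% for CpG-poor genes with no peak and 17.6% for the latter without the receptor families and unnamed models. The most were found around Kdm6b, a histone H3 lysine demethylase (25 sites), Ripor3 (23 sites), Scnn1a, a subunit of the epithelial sodium channel that clears fluid from the airspaces (22 sites), and Fmod, the collagen-binding proteoglycan fibromodulin (22 sites).

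The strongest members by score included the following genes. Fcgrt, whose promoter is printed above, led with scores of 144 and 123 in replicates 1 and 2, at a site centred 50 bp upstream. Trim21, a ubiquitin ligase that binds antibody inside cells, had 129 and 121, and Trim12c, of the same tripartite motif family, had 132 and 106. Ifi27 had 130 and 107, and Isg20, an interferon-induced exonuclease, had 127 and 103. Krt7, a keratin of simple epithelia including alveolar type 1 cells, had 128 and 101. Tpp1, a lysosomal protease, had 127 and 113. Each of these 7 sites was in the top decile of shared sites in both replicates. Some of the strongest sites lay well downstream of the annotated end and were themselves richer in CpG. The site of Atp5j2, a subunit of ATP synthase, was centred 481 bp downstream and held 9 CpGs in 150 bp, and that of Sra1, the steroid receptor RNA activator, 484 bp downstream with 11. That of Isg20 was centred 367 bp downstream and held 6. Among the weakest members were Mcpt1 (a mast cell protease; 12 and 10), Cd209d (16 and 5), Ces3a (16 and 7) and Olfr1497 (11 and 13), all near the bottom of both lists.

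Lung epithelial genes were open in most cases. The lists here and below stand beside the 13.9% of all CpG-poor genes. The exact interval lay above that share for the alveolar, airway, connective tissue, smooth muscle, endothelial and myeloid lists. It began at 15.8% for the 2 alveolar type 1 genes and, just above the share, at 14.2% for neutrophil granule genes. Without receptor families and unnamed models the share of CpG-poor genes with a shared site was 21.2%. The intervals of the alveolar type 1, neutrophil granule, airway (from 19.75%) and endothelial (from 16.75%) lists included 21.2%. Of 9 CpG-poor genes of alveolar type 2 cells, which make surfactant, 8 had a shared site. Cxcl15 had scores of 124 and 106, Napsa 107 and 97, and Sftpd, surfactant protein D, 96 and 72. Il33, an alarmin cytokine, had 91 and 72, and Sftpa1 86 and 56. The site of Cxcl15 was centred 243 bp upstream, and the stronger of the 2 sites of Sftpd 472 bp upstream. Slc34a2, the phosphate transporter of these cells, had no peak at its annotated end in either replicate. Both CpG-poor genes of alveolar type 1 cells, the flat cells of gas exchange, were open: Krt7, and Ager, the receptor for advanced glycation end products, with 113 and 85.

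Airway genes were less complete. Shared sites were found for 7 of 16, among them Gsta3 (a glutathione transferase; 108 and 84), Sec14l3 (a lipid-binding protein; 107 and 72), Aldh1a1 (a retinaldehyde dehydrogenase; 78 and 56) and the mucin Muc5b (77 and 49). Scgb1a1, Cyp2f2, Bpifa1 and Trp63, genes of club, secretory and basal cells, had a peak in replicate 1 only.

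Of the connective tissue genes, 11 of 18 were open. Mfap4, a microfibril protein, had 105 and 59, Clec3b (tetranectin) 103 and 67, the flavin monooxygenase Fmo2 100 and 69, and Ogn, the proteoglycan osteoglycin, 95 and 65. The collagen gene Col1a2, Postn (periostin) and Adh1 had a peak in replicate 1 only, and Lum, Mfap5 and Pi16 had none. All 4 CpG-poor genes of smooth muscle and pericytes were open, with Acta2, smooth muscle actin, at 74 and 50. Of 11 endothelial genes 5 were open, led by Robo4, a receptor of vessel stability (90 and 62), and Lyve1, a hyaluronan receptor of lymphatic vessels (90 and 49). Egfl7, Sele and Selp had no peak. The last 2 encode selectins, which catch leukocytes on activated vessels.

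**Figure D4:**
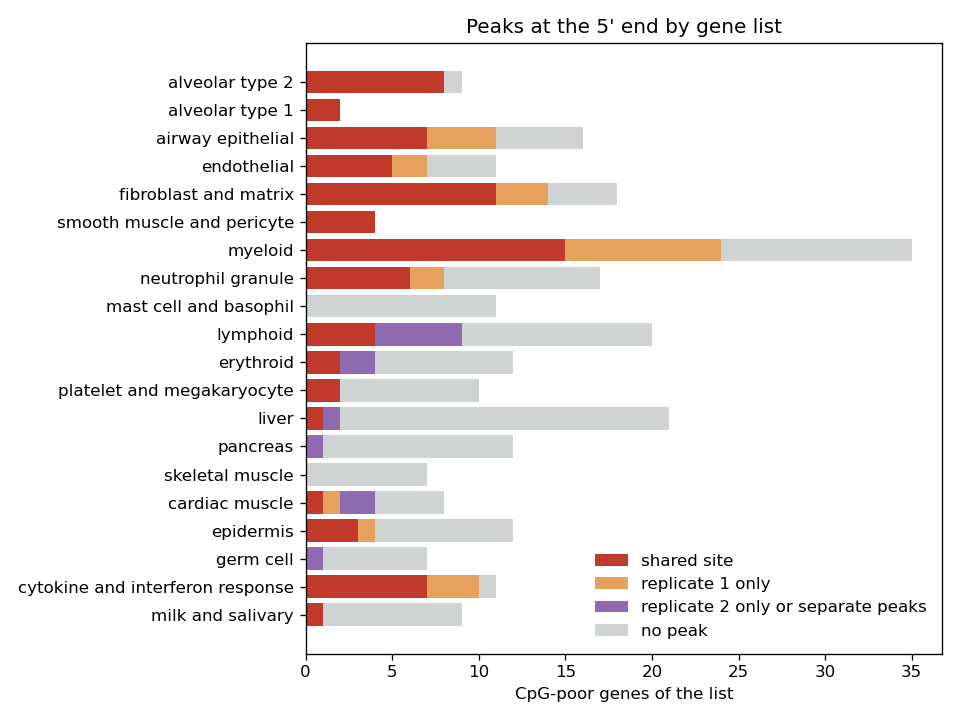
Number of CpG-poor genes in each list (x axis) by peak state at the 5′ end: shared site (red), peak in replicate 1 only (orange), peak in replicate 2 only or separate peaks in both (purple) and no peak (grey). Alveolar, connective tissue and smooth muscle lists were mostly shared, the airway list was at 7 of 16, the myeloid list split between shared, replicate 1 only and none, and mast cell, pancreas, skeletal muscle and germ cell lists had no shared site.

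Of 35 CpG-poor myeloid genes, 15 had a shared site, 9 had a peak in replicate 1 only and 11 had none. Cd68 was the strongest at 114 and 93. Ncf1 and Ncf4, which encode subunits of the phagocyte oxidase, had 89 and 58 and 72 and 54. Cd53, a tetraspanin of leukocytes, had 75 and 54. Csf1r, the receptor that keeps macrophages alive, and Spi1, which encodes the factor PU.1, had no peak at their annotated ends. Neutrophil granule genes had 6 of 17 open, with Camp, the precursor of cathelicidin, at 98 and 68 and Lcn2, an iron-scavenging lipocalin, at 91 and 58. Elane, Ctsg and Chil3 had no peak. None of the 11 CpG-poor genes of the mast cell list was open, which by the exact interval allows a share of up to 28.5% and so includes 13.9%. Of its 6 CpG-richer genes 4 had a shared site. Mcpt1, the weak member named above, is not on the list.

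Of 20 CpG-poor lymphoid genes, 4 had a shared site, and the interval (5.73 to 43.7%) included the 13.9% of all CpG-poor genes. The 4 were Prf1 (perforin, 45 and 44), Cd5 (58 and 35), Il7r (the interleukin 7 receptor, 31 and 32) and Gzma (granzyme A, 25 and 28). A further 5 had a peak in replicate 2 only and 0 in replicate 1 only, the reverse of the order among all CpG-poor genes (73 and 331). A longer list of T-cell genes, chosen after these values were seen, had 9 of 13 CpG-poor genes with a peak in replicate 2 only, 0 in replicate 1 only and 2 shared. Among them were Cd3g (score 53), Themis (50), Rag1 (49), Rag2 (36) and Ptcra (31), which act in developing T cells of the thymus. A heart muscle list chosen in the same way had 5 of 12 in replicate 2 only, including Myh6 (21) and Actc1 (27), and 1 in replicate 1 only. Of the CpG-richer genes, 7 of 13 on the T-cell list and 0 of 13 on the heart muscle list had a peak in replicate 2 only. That state was found for 1.2% of all CpG-poor genes, 0.797% of genes in the middle 4 deciles and 0.140% in the richest 3. What tissue lay behind these peaks was not tested.

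Among the symbol families with over 20 CpG-poor genes, those induced by interferon had the highest share with a shared site. Of 44 CpG-poor genes named Gbp, Ifi, Oas or Slfn, which encode antiviral GTPases, DNA sensors and RNA-degrading systems, 26 had a shared site (59.1%, interval 43.2 to 73.7%). Ifi27 was the strongest, followed by Gbp5 (114 and 86), Gbp6 (96 and 69) and Gbp2 (88 and 73), and Oas1a was the weakest (30 and 27). The IRF letters GAAANNGAA occurred in the site of 14 of these 26 genes (53.8%), against 8.53% of all member sites. In Isg15, a ubiquitin-like protein with scores of 92 and 86, 3 such matches overlap in the run of capitals printed above. Mx1, a GTPase against influenza, had 73 and 62. Of the family, Ifit3, Ifi205 and Slfn14 were among those with no peak. These genes lie in clusters of similar copies, so their values are uncertain where the authors' mapping could split reads between copies, and some share a site.

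Other families are set here beside the 13.9% of all CpG-poor genes. Of aldehyde and alcohol dehydrogenases 6 of 9 were open, led by Aldh1a7 (102 and 78), and of S100 calcium-binding proteins 5 of 10, led by S100a16 (116 and 94). Chemokines had 7 of 21 and CD antigens 12 of 39. For these 4 families the interval lay above that share, by less than 1 percentage point for chemokines (14.6 to 57.0%). It included 13.9% for the next 3 families. Without receptor families and unnamed models the share of CpG-poor genes was 21.2%. Of the 4, only the dehydrogenase interval (from 29.9%) lay above 21.2%. Those of S100 proteins (from 18.7%), CD antigens (from 17.0%) and chemokines included it. The interval of secretoglobins, among the next 3, lay below it (up to 19.7%). Cytochrome P450 enzymes had 8 of 70, with Cyp4b1 at 98 and 67 and Cyp3a13 at 95 and 85. Serpins, which inhibit proteases, had 10 of 48. Secretoglobins had 2 of 34, Scgb1c1 (116 and 104) and Scgb3a2 (55 and 46). Prolactin family genes and major urinary proteins had 0 of 26 and 0 of 22, where 3 counts would be 11.5% and 13.6%.

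Lists of other organs did not depart from the 13.9% of all CpG-poor genes beyond their counting intervals, all of which included it. Of 21 CpG-poor liver genes 1 had a shared site, Alb (albumin), with 36 and 40, and 0 of 12 pancreas genes (upper bound 26.5%), 0 of 7 skeletal muscle genes and 0 of 7 germ cell genes (upper bound 41.0% each) had one. Cardiac genes had 1 of 8, Tnnt2 (67 and 37), and epidermal genes 3 of 12, among them Ivl (involucrin; 52 and 52) and Sprr1a (63 and 42). Of 12 erythroid genes 2 were open, the beta globin gene Hbb-bs at 31 and 31 and Epb42, a protein of the red cell membrane, at 33 and 29. In all, the lists held 252 distinct CpG-poor genes, of which 79 had a shared site. The olfactory receptor genes with shared sites ranged from Olfr1497 (11 and 13) to Olfr433 (103 and 68) and Olfr156 (102 and 64).

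A TATA box, the letters TATAAA starting 15 to 50 bases upstream of the 5′ end on the gene strand, was found in 36 of 848 member genes (4.25%, interval 2.99 to 5.83%). Among CpG-poor genes with no peak it was more frequent, in 371 of 4849 (7.65%, 6.92 to 8.44%), and among open CpG-rich genes rarer, in 0.848%. All protein-coding genes had it in 3.13%. The order of members and genes with no peak held in CpG deciles 2 and 3 (4.40% against 7.54%, and 3.16% against 6.70%). In the lowest decile it was the other way round, 8 of 68 members (11.8%, interval 5.22 to 21.9%) against 8.39%. At RefSeq starts, a choice added after the values were seen, the shares were 6.52% of 506 member genes and 10.6% of 2247 genes with no peak. In the printed promoters the TATA box starts at -27 in Ecm1 and Cxcl15, at -26 in Serpinb1a and at -24 in Sftpa1, and at -30 in Afp, which had no peak.

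The 36 genes included some of the stronger members. Acy3, an aminoacylase, and Fgfbp1, which carries fibroblast growth factors, had scores of 111 and 88 and of 111 and 77. Serpinb1a had 101 and 67 and Ecm1 100 and 82. The mucin Muc4 had 87 and 66 and Ifi47, an interferon-induced GTPase, 98 and 56. It was found in 3.30% of the 212 members with the highest scores and in 3.29% of the 213 with the lowest.

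The 5 members with the fewest CpGs by the naming rule spanned most of the score range. Serpina3i, with 0 CpGs in 1 kb, had scores of 76 and 51, and Olfr1497, also with 0, had 11 and 13. Mettl21e, a muscle methyltransferase with 1 CpG, had 117 and 83, and Akr1c19, an aldo-keto reductase with 1 CpG, had 90 and 62. Nlrp1b, an inflammasome sensor with 1 CpG, had 69 and 47. In the 150 bp of the site itself, 174 of 915 member sites held no CpG (interval 16.5 to 21.7%), against 18.4% of distal sites and 0.111% of CpG-rich promoter sites. The median number was 2 CpGs in members and distal sites and 16 in CpG-rich promoters. GC content had a median of 50.7% in members, 48.7% in distal sites and 69.3% in CpG-rich promoters. Sites without CpG had median scores of 61 and 43, and those with 4 or more CpGs 76 and 56. Repeats covered at least 50% of the site in 2.40% of members and 4.78% of distal sites.

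Motif letters in the 150 bp of the site were in most cases as frequent in the members as in distal elements, or nearly so. For 32 of the 35 motifs searched on both strands, the share in members lay nearer to that of distal sites than to that of CpG-rich promoter sites. The CpG-bearing motifs of island promoters were scarce. The GC box GGGCGG, read by Sp and Klf factors, was in 10.8% of members, 62.4% of CpG-rich sites and 5.61% of distal sites. The ETS letters CCGGAA were in 3.28%, 17.6% and 3.15%, and the NRF1 letters GCGCATGC in 0.328%, 3.63% and 0.347%. Such motifs contain CpG, which the choice of members limits by construction. Motifs without CpG are not limited in this way, but the classes also differ in GC content, whose part was not tested. AP-1 (TGANTCA) was in 9.40% of members, 1.77% of CpG-rich sites and 10.3% of distal sites. The C/EBP letters (TTGCNNAA) were in 13.1%, 2.70% and 12.1%, and the GATA letters (AGATAA) in 6.56%, 1.05% and 7.13%. The GT box GGGTGG, which has no CpG and is also read by Sp and Klf factors, went the other way, with 20.1%, 20.9% and 12.8%. CCAAT, read by NF-Y, was in 19.2%, 22.5% and 17.0%.

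**Figure D5:**
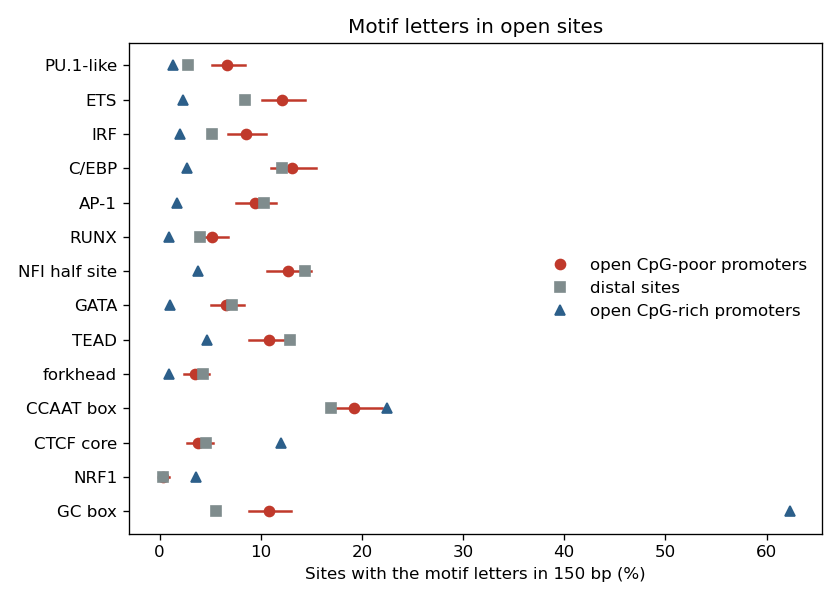
Share of sites with the letters of each motif in 150 bp (x axis, %) for open CpG-poor promoters (red circles, with exact binomial 95% intervals), distal sites (grey squares) and open CpG-rich promoters (blue triangles). The red points follow the grey ones for most factors, and lie above them for the PU.1-like, ETS and IRF letters and for the GC box.

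For 4 motifs without CpG the interval of the members lay above the shares of both other classes. The PU.1-like letters GAGGAAGT, from the ETS factor of myeloid cells, were in 61 member sites (6.67%, interval 5.14 to 8.48%), 1.33% of CpG-rich sites and 2.81% of distal sites. The related ETS letters ACAGGAA were in 12.1%, 2.35% and 8.40%, and the IRF letters in 8.53% (interval 6.80 to 10.5%), 1.98% and 5.17%. The fourth, GGGTGTGG of Klf factors, was in 4.15% (interval 2.96 to 5.66%), 1.83% and 2.25%. At the 5′ ends of CpG-poor genes with no peak, in windows of equal length, the PU.1-like letters were in 149 of 4849 (3.07%) and the IRF letters in 291, against 40 and 68 of 848 at the 5′ ends of members (4.72% and 8.02%). Over all protein-coding 5′ ends the shares were 1.97% and 3.68%. Of the 15 open myeloid genes, 4 held the PU.1-like letters (Cd53, Ncf4, Pld4 and Tyrobp), and the letters ACAGGAA occurred in Ccl6, Cd52, Cd53 and Lyz2, among others. Of the 8 open alveolar type 2 genes none held the PU.1-like or IRF letters, and 2 held the NKX letters CTTGAG (Napsa and Sftpa1), which 12.5% of all member sites held. Both of these matches lie outside the bases printed above. The site of Napsa was centred 141 bp downstream of the 5′ end, so the NKX letters capitalised in its printed promoter are not in it. A match describes the letters and not a bound factor, and sites of genes in 1 cluster are not independent.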

How the data were processed

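The authors called DNase-seq peaks and hotspots library by library on assembly mm10, per the deposited notes. Aligner, caller and depth are not given in the sources used here. Each deposited peak was 150 bp wide and carried a score, the authors' own value, used only to describe and rank. Each hotspot carried a −log10 q-value given by the authors, capped at 100. Exact duplicate peaks (26 and 23) were removed. Peaks were merged with Python 3.11, numpy 2.4.6 and pandas 2.3.3. CpG number was counted in 1000 bp around the 5′ end of each of 21938 protein-coding genes of GENCODE M21, and deciles were taken over all of them. Intervals are exact binomial (scipy 1.17.1). With 1 group of 2 replicates there is no contrast between conditions and no test was run. The merging, the assignment to genes and the motif search were tested on simulated data. The members and lists were chosen with earlier results of these data known, and the T-cell and heart muscle lists after the values were seen. Named genes were, by rule, the 20 strongest and 5 weakest members, up to 4 open and 3 closed genes per list, the strongest with a TATA box, those with the fewest CpGs, the widest hotspots and the most distal sites, and the strongest per family. A few of these are not reported here. Others that are named are examples chosen after their values were seen.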

Additional observations from a re-analysis of the deposited data

How the results depend on the processing

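No paired analysis was possible because the series holds 1 group. The number of member genes was 848. It was 501 with peaks at or above the median score of their list, 341 (of 4160) for the lowest 2 deciles and 1518 when any annotated TSS of the gene counted, and within 1.5 times of 848 under the other alternatives run. The share of CpG-poor genes with a shared site (13.9%) was 11.9% at 250 bp and 18.0% at 1000 bp. It was 8.20% with the stronger peaks, 8.20% for the lowest 2 deciles, 14.9% when the ratio of observed to expected CpG defined the class, 24.8% with any annotated TSS and 15.8% with hotspots in place of peaks. It was 18.1% without receptor families and 21.2% also without unnamed models. With the peaks of 1 replicate alone it was 15.2 to 19.4%. The TATA box share (4.25%) was 5.87% in the lowest 2 deciles, 6.52% at RefSeq starts and 5.90% with the letters TATANA, against 582 of 4849 genes with no peak. The median score in replicate 1 (68) was 84 with the stronger peaks and 53 for all promoter peaks of replicate 1. Within 20 kb in place of 50 kb, the median number of distal sites was 2 for members and 2 for all protein-coding genes. It was 0 for CpG-poor genes with no peak. With 300 bp windows 33 motifs in place of 32 lay nearer to distal sites. Depth is unknown, so weak promoters missing from replicate 2 cannot be told from closed ones.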

Other observations

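At 37 of 848 member genes (4.36%) the strongest site had a score in replicate 2 at or above that in replicate 1. Replicate 1 had the higher score at 95.5% of all shared sites, so such sites were about as frequent outside the members. The 37 genes were of several kinds. They included Ptprc (43 and 43), the leukocyte antigen CD45, Cd69 (30 and 37), an activation marker of lymphocytes, Il7r, Gzma and S100a9 (25 and 27), a calcium-binding protein of neutrophils. Kdm6b (58 and 66), Capsl (75 and 75), Tmod4 (56 and 61), Ivl (52 and 52), Alb and Hbb-bs were also among them. Other leukocyte genes had the higher score in replicate 1, such as Cd68 (114 and 93), S100a8 (73 and 63) and Cd5 (58 and 35). These genes were listed after their values were seen, and the cause was not tested.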
